A study of Mus musculus with 4 samples.

Results

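The genes described here are 36 interferon-stimulated genes, the transcripts that cells raise when interferon reaches its receptor. They were found by symbol in a list drawn up with the levels in these data already known, so the values below describe the 36 genes and none of them was put to a test. All 36 were present, each once, among the 52636 genes of the table, of which 32271 had a count in any cell. The cells were luminal epithelial cells sorted from the mammary glands of 6-week old C57BL/6N mice, and they were profiled with a droplet method that counts 3′ ends of transcripts by unique molecular identifiers (UMIs). One group, here WT, was ErbB3+/+;MMTV-Cre, and the other, here mutant, was ErbB3V943R/V943R;MMTV-Cre. The mutant carries, on both alleles, a conditional V943R change, made to impair the activator function of the receptor tyrosine kinase ERBB3. Both groups carried MMTV-Cre, a Cre recombinase driven by a viral promoter that is active in mammary epithelium and in some other tissues. By the paper's design the allele gives wild-type Erbb3 until Cre recombines it, so only cells in which Cre acted express V943R. Which cells those were was not measured here. Glands from 3 mice were pooled per genotype and each pool was run as 2 libraries, called WT A, WT B, mutant A and mutant B below, so a pair of libraries shares its mice. With 1 pool per genotype there is no test of genotype. Intervals given below are exact 95% intervals of counting error only and hold no spread between mice. Those of levels and ratios take each UMI as independent and hold no spread between cells.

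Interferons bind receptors at the cell surface whose kinases, of the JAK family, phosphorylate STAT proteins. After type I or type III interferon, a complex that holds STAT2 and IRF9 binds the interferon-stimulated response element in front of target genes. After interferon gamma, STAT proteins bind the gamma-activated site. The targets include sensors of viral RNA and DNA, enzymes that degrade or modify RNA, membrane proteins that hold back viruses, and STAT2, IRF7 and IRF9 themselves, which extends the response. Many of these genes are also transcribed at a low level without infection.

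The promoters of the table of RefSeq starts, in which each entry holds 250 bases before and 50 bases after a start (build GRCm38), were searched for both elements on both strands. An entry was found for 26 of the 36 genes. The response element, written GAAANNGAAA, was found for 13 of the 26 genes, while it was found for 3.99% of the 27025 genes with a promoter in the table. A gene can have more than 1 promoter there: the element was in 14 of the 31 promoters of these genes and in 3.44% of the 32851 of all genes. The gamma-activated site, written TTCNNNGAA, was found for 6 of the 26 (Ifit2, Oas1a, Irf1, Bst2, Ifi35 and Ifitm3) and for 9.55% of all genes, or in 6 of the 31 promoters and 8.30% of all. Bst2, Oas1a and Ifitm3 held both. Shown here are the 200 bases before the start of 7 genes that held the response element in that stretch, because these include the genes by which cells are split below (Ifit1 and Ifit3), the neighbouring paralog Ifit3b, and 4 of the genes of other families found with them. They lie at chr4:156200819-156201018 (minus strand) for Isg15, chr5:120907526-120907725 (minus strand) for Oas1a, chr8:71537473-71537672 (minus strand) for Bst2, chr12:26456453-26456652 (minus strand) for Rsad2, chr19:34640689-34640888 (plus strand) for Ifit1, chr19:34583329-34583528 (plus strand) for Ifit3 and chr19:34607757-34607956 (plus strand) for Ifit3b. Each is printed 5′ to 3′ on the strand of its gene, and capitals mark every match to the response element, read on either strand.
Isg15 upstream: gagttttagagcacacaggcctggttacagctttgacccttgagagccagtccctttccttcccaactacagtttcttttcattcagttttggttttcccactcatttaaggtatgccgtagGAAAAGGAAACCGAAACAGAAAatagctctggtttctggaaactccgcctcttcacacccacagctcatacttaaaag
Oas1a upstream: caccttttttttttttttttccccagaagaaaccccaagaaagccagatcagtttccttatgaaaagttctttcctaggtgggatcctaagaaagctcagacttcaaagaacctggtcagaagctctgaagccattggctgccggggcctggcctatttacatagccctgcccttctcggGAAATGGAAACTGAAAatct
Bst2 upstream: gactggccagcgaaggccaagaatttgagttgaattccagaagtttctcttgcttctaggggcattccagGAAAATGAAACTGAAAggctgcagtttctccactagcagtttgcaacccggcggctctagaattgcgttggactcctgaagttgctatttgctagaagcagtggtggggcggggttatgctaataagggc
Rsad2 upstream: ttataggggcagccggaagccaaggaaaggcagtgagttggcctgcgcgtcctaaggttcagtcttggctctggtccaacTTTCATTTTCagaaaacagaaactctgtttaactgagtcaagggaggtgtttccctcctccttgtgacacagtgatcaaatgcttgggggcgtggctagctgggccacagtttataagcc
Ifit1 upstream: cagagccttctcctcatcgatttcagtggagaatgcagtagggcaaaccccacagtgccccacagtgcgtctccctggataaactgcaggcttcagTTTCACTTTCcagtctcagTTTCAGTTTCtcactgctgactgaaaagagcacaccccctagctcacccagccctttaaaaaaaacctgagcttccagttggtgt
Ifit3 upstream: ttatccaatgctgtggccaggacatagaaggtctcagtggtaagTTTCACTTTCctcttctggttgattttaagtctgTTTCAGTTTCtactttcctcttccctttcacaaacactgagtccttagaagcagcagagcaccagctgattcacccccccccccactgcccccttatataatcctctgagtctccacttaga
Ifit3b upstream: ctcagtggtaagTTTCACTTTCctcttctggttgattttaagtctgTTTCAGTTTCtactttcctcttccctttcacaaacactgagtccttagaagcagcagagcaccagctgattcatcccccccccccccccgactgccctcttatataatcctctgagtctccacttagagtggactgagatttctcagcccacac

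In Isg15 3 matches overlapped between bases -78 and -57 before the start, and in Oas1a and Bst2 2 matches overlapped. The IFIT genes held theirs on the opposite strand, as the reverse complement. The stretches of Ifit3 and Ifit3b shared an unbroken run of 119 bases that holds both matches, 34 bases apart from first base to first base in each gene. These neighbours also share transcript sequence: 17.4% of the 31-base stretches in the last 300 bases of Ifit3 occur in Ifit3b transcripts, so their counts may be split unevenly. For Oas1a the share found in Oas1g, which is not among the 36 genes, was 47.8%. No match means only that these letters are not in the window, as for Irf7, Ifit2 and Irf9.

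The 36 genes lie on 14 chromosomes. The 4 IFIT genes lie close together on chromosome 19, from Ifit2 at 34550694 to Ifit1 at 34650009, and the 5 genes of the synthetase family lie on chromosome 5. Rsad2 (chromosome 12, 26442746 to 26456452) and Cmpk2 (26469204 to 26479837) lie close together and point away from each other. GENCODE release 21 lists 35 of the genes as protein coding and Mx2 as a polymorphic pseudogene, and Mx1 is known to be defective in many laboratory strains, C57BL/6 among them. A gene on the same strand overlapped 5 members (Irf9, Rtp4, Parp14, Sp100 and Herc6), for which counts are less certain.

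The 4 libraries held 9627, 9011, 6849 and 6952 cells in the order above, with 30019745 to 38009351 UMIs each and a median of 3154 to 4027 UMIs per cell. Of 31923 distinct cell barcodes, 511 occurred in more than 1 library. The deposited classes are luminal progenitor (LP, 6304 cells in clusters 1 and 2), luminal intermediate (LI, 2095 cells in cluster 3), mature luminal (ML, 23800 cells in clusters 4 to 11) and rare cells (240, clusters 12 and 13). Levels are given as CPM, the UMIs of a gene per 1000000 UMIs of the same cells and library. Markers followed the class names, in that 8 progenitor markers summed to 16644 to 17353 CPM in LP cells and 174 to 206 in ML cells. Cluster 12 carried endothelial and fibroblast markers (2779 to 5255 and 5033 to 13993 CPM) and cluster 13 immune markers (23424 to 34059). Erbb3 counts were 60.9 and 63.3 CPM in WT and 29.8 and 30.8 in mutant. Counts of 3′ ends do not read the V943R codon, so they do not show V943R itself. By the paper's methods the wild-type cassette that Cre removes ends in a 3′ sequence of human growth hormone. The part of that design in the lower Erbb3 count was not tested.

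All 36 genes had UMIs in every library. Counts were not scaled to transcript length, because each UMI stands for the 3′ end of 1 molecule; capture may still differ between genes. Over all cells, the 36 genes summed to 1520 and 1627 CPM in WT A and WT B and to 1236 and 1272 in mutant A and mutant B, and the mutant libraries lay below the WT libraries (log2 mutant over WT -0.33, interval -0.34 to -0.32). The membrane protein gene Ifitm3 alone made 39.2% of the sum in WT and 35.5% in mutant. Without Ifitm3 the order of the libraries was unchanged (log2 -0.24, interval -0.26 to -0.23).

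**Figure D1:**
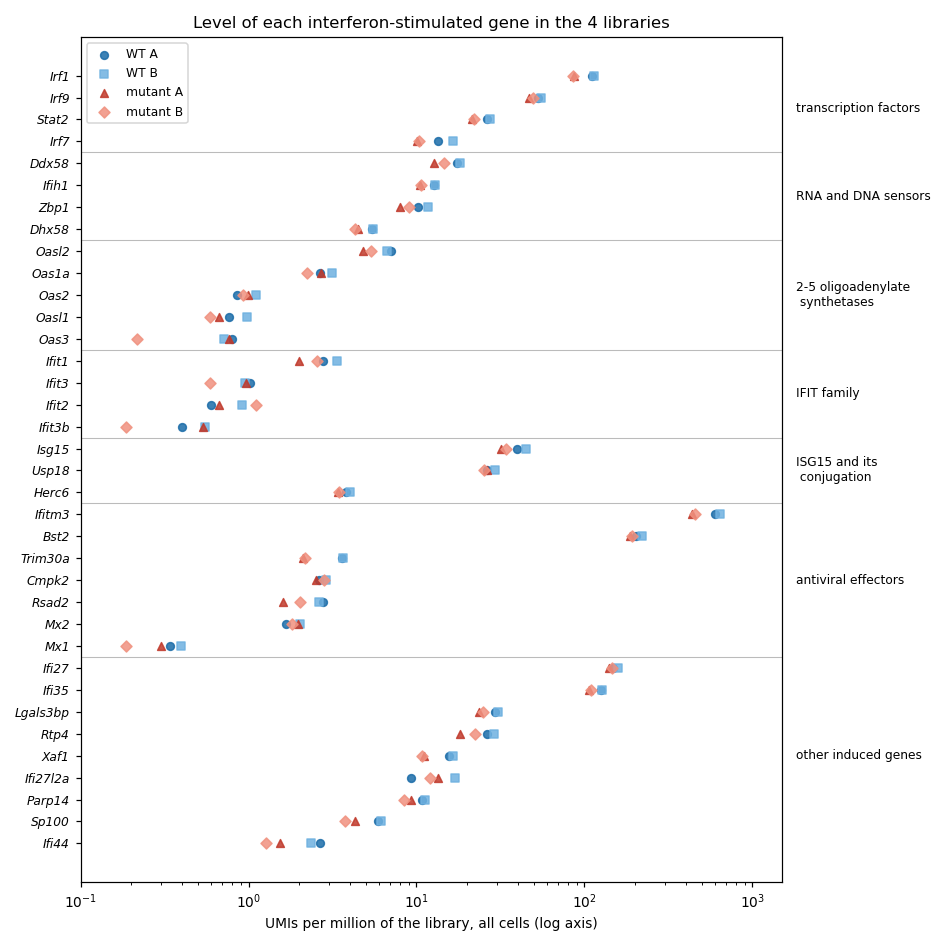
CPM of each library over all cells (log axis) for the 36 interferon-stimulated genes, grouped by role. Points are the 4 libraries, without error bars. Ifitm3 sits highest at 437 to 638 and Mx1 lowest at 0.19 to 0.39, and for most genes both mutant libraries (red) lie left of both WT libraries (blue).

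To ask whether the luminal cells of the mutant carried the response at another level, each gene was compared between genotypes within each class. A gene entered the comparison with at least 100 UMIs over the 4 libraries, and it was called where its pooled level differed at least 1.5-fold and both mutant libraries lay beyond both WT libraries. No member was called higher in any class. In LP cells 7 of the 22 members with enough counts were called lower in mutant (Isg15, Ifi44, Usp18, Xaf1, Irf7, Zbp1 and Parp14), against 0.466% of the 10953 genes compared. In LI cells 5 of 18 were called lower (Irf7, Ifi27l2a, Rtp4, Isg15 and Xaf1), against 0.872% of 10209 genes. In ML cells 3 of 29 were called lower (Trim30a, Sp100 and Ifi44), against 1.254% of 14829 genes. Over all cells, which mixes classes whose shares differ between genotypes, 2 of 33 were called lower (Ifi44 and Trim30a), against 0.968% of 16123 genes. Calls of higher genes took 1.72% of all genes in LP, 2.21% in LI, 2.6% in ML and 2.9% over all cells.

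Most members moved less than 1.5-fold, and in one direction. The median log2 mutant over WT of the members with enough counts was -0.42 in LP, -0.42 in LI, -0.30 in ML and -0.33 over all cells, where the median of all genes compared was 0.02, -0.002, 0.005 and 0.02. Counting only the order of the libraries, at any fold, both mutant libraries lay below both WT libraries for 17 of 22 members in LP (18.1% of all genes), 16 of 18 in LI (22.6%), 23 of 29 in ML (26.5%) and 26 of 33 over all cells (22.4%). Both mutant libraries lay above for 0 members in each class and over all cells, whereas this order held for 22.6% of all genes in LP, 22.5% in LI, 27.7% in ML and 31.8% over all cells. This count by order alone was added after the data were seen. The libraries of a genotype share a pool of mice, so the order of 4 libraries is not an order of 4 independent samples.

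**Figure D2:**
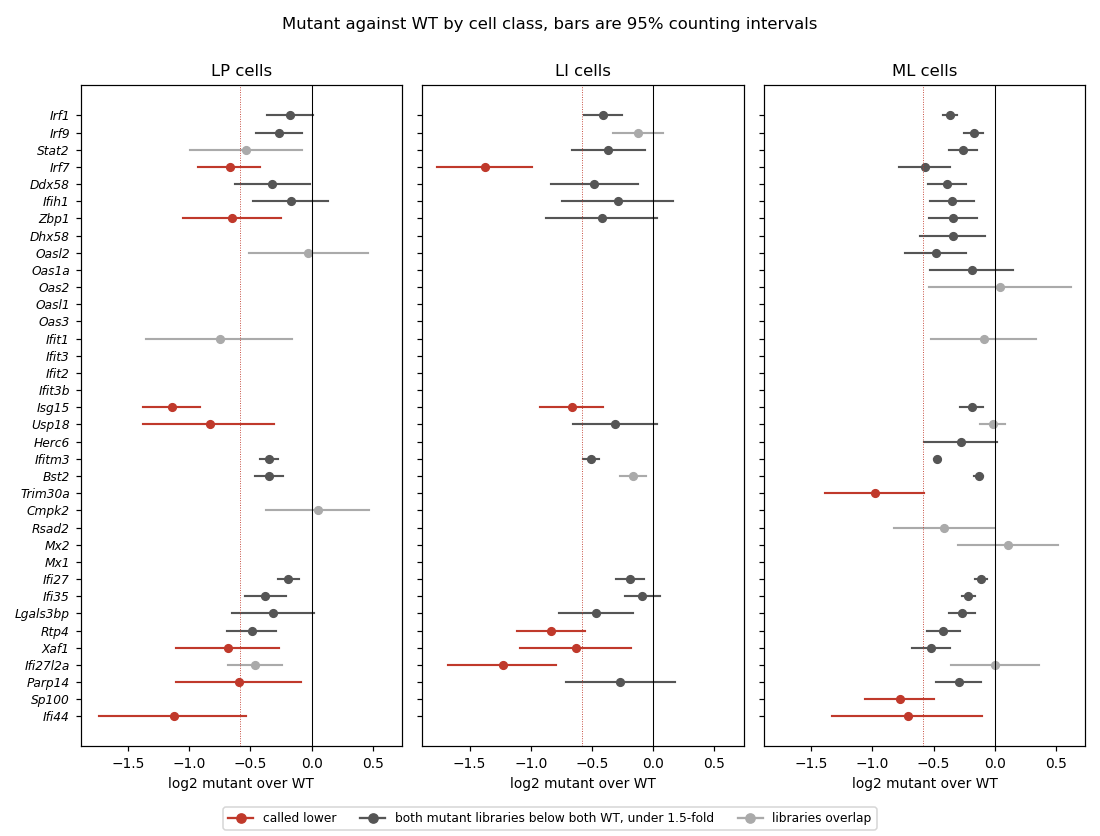
Log2 mutant over WT of each interferon-stimulated gene with at least 100 UMIs in LP, LI and ML cells. Points are pooled levels, bars are 95% intervals of counting error, and the dotted line marks a 1.5-fold lower level. Nearly all points lie left of 0, with medians of -0.42, -0.42 and -0.30, and the red points are the 7, 5 and 3 genes called lower.

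Among the transcription factors, Irf7, a factor that amplifies interferon production, differed most. In LP cells its level was 33.4 and 44.8 CPM in WT A and WT B and 26.6 and 23.3 in mutant A and mutant B (log2 -0.67, interval -0.92 to -0.42). In LI cells the WT libraries stood at 21 and 31.9 and the mutant libraries at 10.8 and 9.52 (log2 -1.37, interval -1.77 to -0.99). The genotypes did not overlap in either class, nor in ML cells, where the level was 9.21 and 9.96 against 5.93 and 6.95, a log2 of -0.57 that falls short of the 1.5-fold rule. Irf1, a factor that interferon gamma induces, stood over all cells at 110.5 and 115 CPM in WT and 87.0 and 85.6 in mutant. Irf9, the DNA-binding partner of the STATs, stood at 53.0 and 55.5 against 46.6 and 49.2. Stat2 stood at 26.4 and 27.3 against 21.4 and 22.0. In these 3 genes the genotypes did not overlap over all cells, at log2 values of -0.38, -0.18 and -0.31.

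The sensors Ddx58 (RIG-I), Ifih1 (MDA5) and Dhx58 (LGP2), which bind viral RNA, and Zbp1, which binds nucleic acids in the Z form, lay lower in both mutant libraries over all cells in 4 of 4 cases, as did 22.4% of all genes. Ddx58 stood at 17.5 and 18.0 CPM in WT and 12.8 and 14.5 in mutant (log2 -0.38, interval -0.50 to -0.25). Zbp1 was called in LP cells, at 11.9 and 19.8 in WT and 10.1 and 10.4 in mutant (log2 -0.65, interval -1.05 to -0.25). Here WT B stood well above WT A, and WT A was close to the mutant libraries. Of the 5 genes of the 2-5 oligoadenylate synthetase family, none was called. The family is named for enzymes that make the messenger that activates RNase L, which not every member does. Oasl2 was the most abundant of the 5 by UMIs, at 7.01 and 6.66 in WT and 4.80 and 5.34 in mutant over all cells, and the others lay between 0.22 and 3.16. The IFIT genes were rare, with 57 (Ifit3b) to 369 (Ifit1) UMIs over all cells, and none was called. In LI cells all 4 were under 100 UMIs and were not compared, though Ifit1 stood there at 7.18 and 4.40 CPM in WT and 1.26 and 1.59 in mutant (log2 -2.04, interval -3.14 to -1.06) and Ifit3 at 4.52 and 2.48 against 1.26 and 0.265 (log2 -2.19, interval -3.76 to -0.87). Over all cells Ifit1 stood at 2.79 and 3.37 in WT and 2.0 and 2.56 in mutant, and Ifit2 overlapped between genotypes at 0.599 and 0.921 against 0.666 and 1.11, with a pooled level that was not lower in mutant (log2 0.23, interval -0.33 to 0.79).

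Isg15 encodes a ubiquitin-like protein that is attached to other proteins, Usp18 the protease that removes it, and Herc6 a ligase that attaches it. In LP cells Isg15 stood at 49.1 and 64.7 CPM in WT and 33.2 and 19.9 in mutant (log2 -1.14, interval -1.38 to -0.91). In LI cells it stood at 43.1 and 43.2 in WT and 23.3 and 31.2 in mutant (log2 -0.67, interval -0.92 to -0.41). Of its UMIs in WT LI cells, 105 lay in the 29 of 1143 cells with a UMI of Ifit1 or Ifit3 and 214 in the rest. In LI cells without either gene the libraries overlapped, at 27.9 and 32.2 in WT and 21.5 and 30.7 in mutant. In ML cells the difference was small, with 37.3 and 41.1 against 32.6 and 36.3 (log2 -0.19, interval -0.28 to -0.09). With every cell of a class counted, the mutant libraries were below the WT libraries in all 3 classes, and the interval in LP cells did not meet that in ML cells. These intervals are too narrow for spread between cells: 166 of the 488 UMIs of Isg15 in WT LP cells lay in 58 of 3181 cells. Usp18 was called in LP cells alone, at 10.2 and 9.59 in WT and 6.83 and 4.44 in mutant (log2 -0.83, interval -1.38 to -0.31). In ML cells, where Usp18 was more abundant, the libraries overlapped at 29.5 and 32.9 against 31.1 and 30.8 (log2 -0.02, interval -0.12 to 0.08). No test of the difference between classes could be made with 1 pool per genotype.

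The antiviral effectors held the most abundant members. Ifitm3, which blocks fusion of enveloped viruses, stood at 597 and 638 CPM in WT and 437 and 453 in mutant over all cells (log2 -0.47, interval -0.49 to -0.45). Its mutant libraries were below both WT libraries in LP, LI and ML cells, with log2 values of -0.35, -0.51 and -0.47, under the 1.5-fold rule in each. Bst2 (tetherin), which holds budding virus at the membrane, stood at 203 and 221 against 188 and 191. Trim30a, a TRIM protein that restrains inflammatory signalling, was called in ML cells at 3.28 and 3.10 in WT and 1.23 and 1.98 in mutant (log2 -0.98, interval -1.39 to -0.58). It was also called over all cells, at 3.59 and 3.63 against 2.10 and 2.16 (log2 -0.76). With a mean over cells in place of summed UMIs, the log2 of Trim30a over all cells was -0.43, short of the 1.5-fold rule. Not all effectors followed: Cmpk2, a mitochondrial nucleotide kinase, overlapped between genotypes in LP cells (9.17 and 12.7 against 10.9 and 11.8), and so did the GTPase gene Mx2 in ML cells (1.62 and 2.26 against 2.23 and 1.98).

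Of the remaining induced genes, Ifi44 was called in LP cells, in ML cells and over all cells. In LP cells it stood at 9.17 and 8.92 CPM in WT and 4.56 and 3.81 in mutant (log2 -1.12, interval -1.74 to -0.53), and in ML cells at 1.44 and 1.08 against 0.87 and 0.67. Xaf1, an antagonist of the apoptosis inhibitor XIAP, was called in LP cells at 13.6 and 15.2 against 9.36 and 8.67 and in LI cells at 14.4 and 14.03 against 11.04 and 7.14. Both genes kept the genotypes apart in each class where they were compared. Rtp4, a chaperone of receptor transport, was called in LI cells at 34.8 and 42.9 in WT and 20.1 and 23.5 in mutant (log2 -0.83, interval -1.12 to -0.55). Ifi27l2a was called in LI cells at 15.1 and 23.7 against 10.0 and 6.35, but in LP cells WT A at 26.01 fell below both mutant libraries (35.9 and 31.7) while WT B stood at 64.7. The order of Ifi27l2a in LP cells thus rested on a single library.

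Parp14, an ADP-ribosyltransferase, was called in LP cells at 9.66 and 9.81 in WT and 7.59 and 5.50 in mutant (log2 -0.59, interval -1.11 to -0.09), just past the 1.5-fold rule at 1.51-fold. Sp100, a component of nuclear bodies, was called in ML cells at 6.00 and 5.70 against 3.24 and 3.58 (log2 -0.78, interval -1.06 to -0.50). These values were low, and their intervals wide. The more abundant members of the group moved less: over all cells Ifi27 stood at 148 and 158 against 139 and 145, Ifi35 at 126 and 127 against 106 and 109, and the secreted glycoprotein gene Lgals3bp at 29.2 and 30.7 against 23.6 and 24.9.

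The calls in LP cells leaned on WT B. Without that library 2 members were called lower and the median was -0.20, without mutant B 4 members were called, and without the cells of cluster 2 the count was 3. In ML cells 5 members were called without mutant B, and over all cells 5 without WT A and 6 without mutant B. Markers of dissociation stress, 8 immediate-early and heat-shock genes, moved in the same direction: they summed to 22595 and 23464 CPM in WT LP cells and 18208 and 18583 in mutant LP cells, with 7 of 8 genes below in both mutant libraries. In ML cells they summed to 17743 and 18451 in WT and 14638 and 15393 in mutant, with 6 of 8 below, and in LI cells to 19968 and 21218 against 15157 and 16100, with 7 of 8 below. Class markers also moved. In LP cells the 8 progenitor markers summed to 16969 and 17353 CPM in WT and 16644 and 16860 in mutant (4 below, 1 above), and the 8 mature markers overlapped at 1036 and 1082 against 998 and 1090 (5 below, 1 above). In ML cells the 8 proliferation markers summed to 485 and 495 CPM in WT and 588 and 545 in mutant (6 above, 0 below), and the 7 basal markers to 16.3 and 18.6 against 15.2 and 14.3 (4 below, 0 above). In LI cells the 8 progenitor markers summed to 5077 and 5244 CPM in WT and 4520 and 4704 in mutant (5 of 8 below, 0 above), the 8 mature markers to 6081 and 6053 against 6287 and 6470 (3 above, 2 below), and the 8 proliferation markers to 200.1 and 177 against 272 and 293 (8 above). Of the 5 members called in LI cells, Irf7, Ifi27l2a and Rtp4 were also among those higher in LP than in ML cells of WT. Immune markers, 15 genes, were low in both classes (17.8 to 34.2 CPM in LP and 6.92 to 12.9 in ML cells) and were not lower in mutant, with Cd3e at 0 in LP cells. Fibroblast markers, 6 genes, were low but moved with the genotype in ML cells (15.1 and 13.8 in WT against 5.43 and 4.38 in mutant, 3 of 6 below), and in LP cells they lay between 1.52 and 4.65. Endothelial markers, 6 genes, lay between 28.6 and 30.6 in ML cells. The part of handling stress, of fibroblast RNA or of a shift along the lineage within a class in the lower interferon-stimulated genes was not tested. To set cells of like depth side by side, the cells of each class were split into 5 bins by UMIs per cell, a step added after the data were seen. The summed level of the 36 genes was lower in mutant in all 15 bins, at log2 values from -0.17 to -0.52. This sum was not split into bins without Ifitm3.

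The same comparison was made for the rest of the pathway. Interferon genes themselves were almost absent: 21 ligand genes summed to 13 UMIs over all 4 libraries. The 6 receptor chains were measured in every class, with 0 of 6 called in any (0.466% to 1.254% of all genes were called lower and 1.72% to 2.9% higher). Over all cells the type I receptor chain Ifnar2 stood at 45.7 and 46.1 CPM in WT and 40.0 and 44.0 in mutant, and the interferon gamma chain Ifngr1 at 32.0 and 32.6 against 31.9 and 32.8. Of 8 kinases, STATs and suppressors, 0 were called, while over all cells 4 lay lower in both mutant libraries and 1 higher (22.4% and 31.8% of all genes). The 8 summed to 2051 and 2075 CPM in WT and 1824 and 1872 in mutant, with a median log2 of -0.09. The suppressor gene Socs3 weighed most in this sum. In WT ML cells with no UMI of Ifit1 or Ifit3 it alone made 1944 of the 2253 CPM of the list. Of 12 genes upstream, such as Mavs, Tbk1 and Irf3, 0 of the 10 with enough counts were called, and 4 lay lower and 1 higher over all cells. Of the receptors, 1 lay lower and 0 higher over all cells. In LP cells 0 receptors lay lower and 3 higher (18.1% and 22.6% of all genes), with a median log2 of 0.12. In LI cells 3 lay lower and 0 higher (22.6% and 22.5%), and in ML cells 2 and 0 (26.5% and 27.7%).

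Further induced genes that are not among the 36 showed a smaller median. Of 36 such genes, 28 had enough counts over all cells, with a median log2 of -0.14, and 1 was called lower (the helicase Ddx60, at 2.11 and 2.47 against 1.37 and 1.36), against 0.968% of all genes. Over all cells 14 of the 28 lay lower in both mutant libraries and 3 higher (22.4% and 31.8% of all genes). In LP cells 12 of 18 lay lower and 0 higher (18.1% and 22.6%). In LI cells 9 of 17 lay lower and 2 higher (22.6% and 22.5%), and in ML cells 13 of 25 and 4 (26.5% and 27.7%). Of 9 genes for the immunoproteasome and peptide loading, 8 lay lower in both mutant libraries over all cells, against 22.4% of all genes, none by 1.5-fold, with a median of -0.14. Of 14 interferon gamma induced GTPases, 7 had enough counts over all cells, with a median of -0.25, and 5 lay lower and 0 higher. Igtp was called lower in LP cells, at 10.2 and 10.48 against 5.31 and 5.29, and Irgm1 in LI cells, at 9.04 and 11 against 5.77 and 5.29. Among 6 chemokines, Ccl5 was called lower in ML cells, but WT B at 11.4 stood far above WT A at 4.57, with 4.19 and 2.19 in mutant. Of all genes, 0.466%, 0.872% and 1.254% were called lower in LP, LI and ML cells.

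Within WT libraries the 36 genes were spread over the luminal lineage in unlike ways. Classes come from clusters of the same cells, so the comparison of LP with ML cells is a description, and a gene was called at 2-fold with both libraries in the same direction. In WT, 6 of 29 members were called higher in LP (Ifi27l2a, Cmpk2, Ifi44, Irf7, Ifit1 and Rtp4), against 13% of all genes, and 3 were called lower (Usp18, Stat2 and Irf1), against 9.03%. In mutant, 7 of 27 were higher, against 13.8% of all genes, and 4 were lower, against 8.7%; 5 of the higher and 2 of the lower genes were shared by both genotypes. The shares of members called higher and lower were thus not far above those of all genes in WT. The median log2 LP over ML was 0.24 for the members and 0.17 for all genes in WT, and 0.12 and 0.21 in mutant. Without WT B 3 members were called higher in LP and the median was 0.11.

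The genes on the progenitor side included the kinase Cmpk2 and the factor Irf7. Among members with at least 100 UMIs Ifi27l2a differed most, at 26.01 and 64.7 CPM in LP cells of WT A and WT B and 1.77 and 3.41 in ML cells, and the libraries disagreed on its level in LP cells. Cmpk2 stood at 9.17 and 12.7 in LP and 1.03 and 1.08 in ML cells (log2 3.38, interval 2.90 to 3.88). Irf7 stood at 33.4 and 44.8 against 9.21 and 9.96 (log2 2.04, interval 1.84 to 2.24). Rtp4 stood at 55.7 and 58.9 against 20.7 and 22.5. On the mature side, Usp18 stood at 10.2 and 9.59 in LP and 29.5 and 32.9 in ML cells (log2 -1.67, interval -2.00 to -1.35). Stat2 stood at 9.66 and 13.8 against 28.6 and 29.3, and Irf1 at 55 and 56.6 against 119.9 and 123. Irf9 was near equal in the classes (57.2 and 64.5 against 51.4 and 54.4).

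Across the 11 luminal clusters of WT the summed level of the 36 genes ran from 1069 CPM in cluster 10 to 1877 in cluster 7, a range narrower than the difference to cluster 12. The cells of cluster 12, which carry endothelial and fibroblast markers (43 WT and 33 mutant cells) held 7566 in WT and 9396 in mutant, and those of cluster 13, which carry immune markers (83 and 81 cells) held 2182 and 2583. In cluster 12 both mutant libraries (11021 and 7914) lay above both WT libraries (7842 and 7377), although without Ifitm3 they overlapped (7207 and 4628 against 4644 and 4087), and in cluster 13 they overlapped (1972 and 3214 against 2309 and 2134). In cluster 12 the 6 fibroblast markers also summed higher in mutant, at 8739 and 13993 CPM against 6769 and 5033 in WT (5 of 6 above), as did the 6 endothelial markers, at 5255 and 4080 against 3176 and 2779 (3 of 6 above). The 8 mature luminal markers summed there to 1502 and 2245 against 3242 and 3741 (6 of 8 below), and the part of these cell types in the difference was not tested. In all 11 luminal clusters both mutant libraries lay below both WT libraries, with log2 values from -0.18 in cluster 10 to -0.40 in cluster 3. This order held without Ifitm3, but in cluster 11 by a hair, with WT A at 865.07 and mutant B at 864.48 CPM (log2 -0.11). Cluster 11, which holds 2863 WT and 670 mutant cells, was the highest of the 11 for Ifitm3 in both genotypes (927 and 722 CPM), and cluster 10 the lowest (308 and 273), while cluster 12 stood at 3253 and 3538. Isg15 was highest among the 11 in cluster 7 (63.8 in WT, 52.7 in mutant) and lowest in cluster 10 (17.7 and 12.99), with 321 and 358 in cluster 12. Irf7, Rtp4 and Ifi44 were highest among the 11 in cluster 1 in both genotypes.

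**Figure D3:**
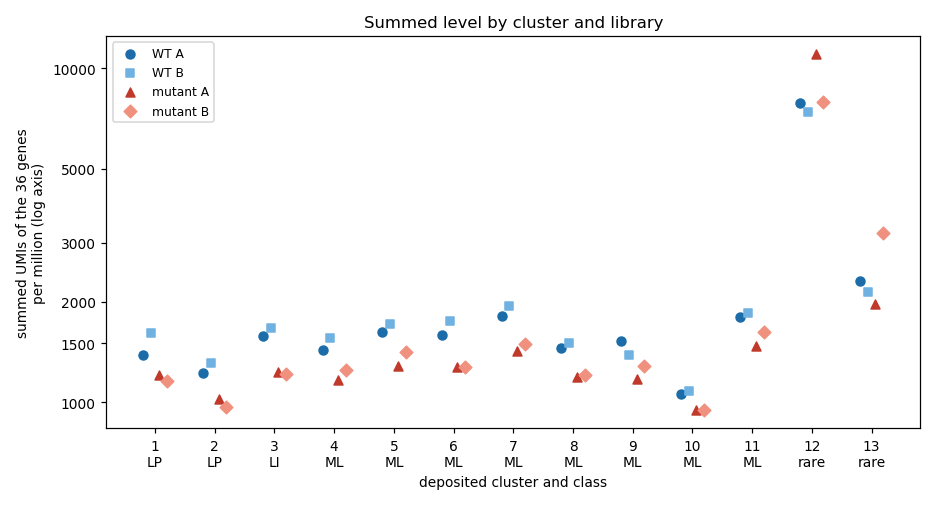
Summed CPM of the 36 interferon-stimulated genes (log axis) in each deposited cluster, labelled with its class, for the 4 libraries. In clusters 1 to 11 the mutant points lie below the WT points, in cluster 12 they lie above, and in cluster 13 they overlap. Cluster 12 stands highest at 7377 to 11021.

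**Figure D4:**
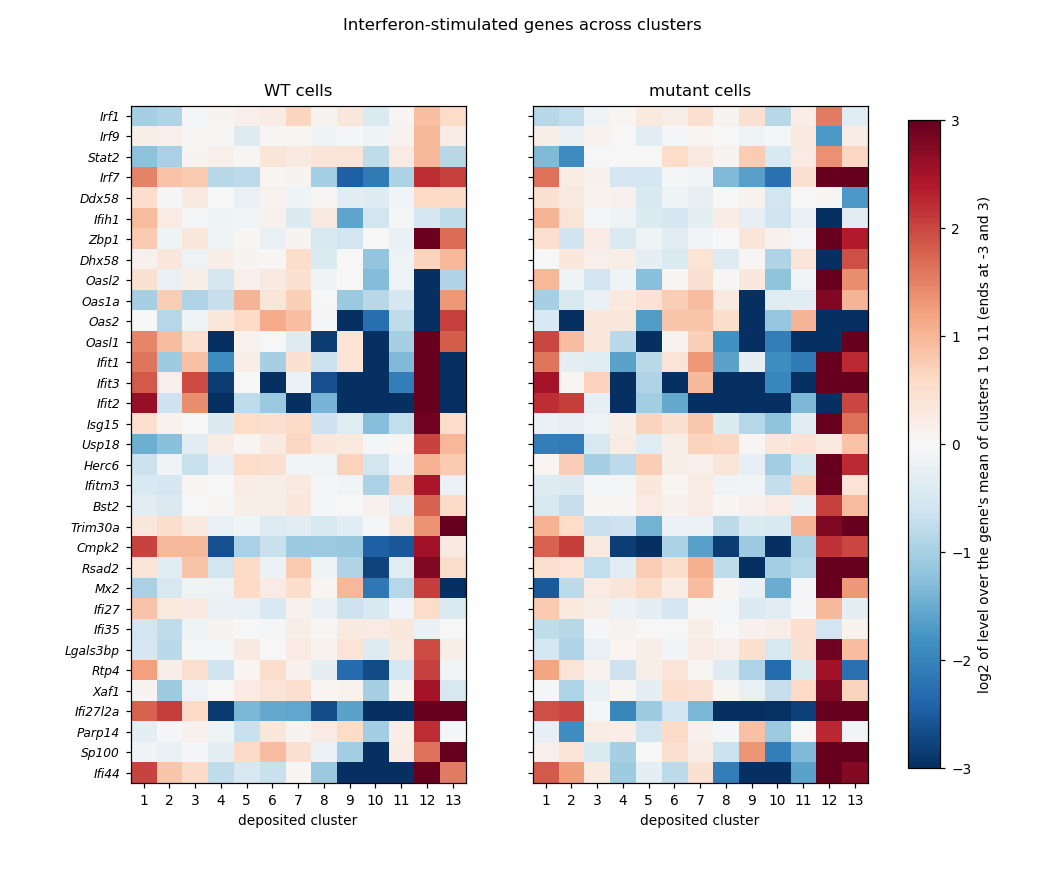
Level of each member with at least 100 UMIs over all cells, by deposited cluster (1 to 13), as the log2 of its level over its own mean of clusters 1 to 11 within the genotype, red higher and blue lower. Colours end at -3 and 3, and a gene with no UMI in a cluster is drawn at -3. Clusters 1 and 2 (LP) are red for Irf7, Cmpk2 and Ifi27l2a, and clusters 12 and 13 hold few cells.

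Levels were also counted in single cells, where counting error is large. Thinned to 1000 UMIs each, so that depth was equal, 24.9% of WT and 32.7% of mutant ML cells held no UMI of any of the 36 genes, and 9.87% and 5.60% held 4 or more. In LP cells 33.2% and 37.8% held none and 6.83% and 4.51% held 4 or more. The shares with none and with 4 or more did not overlap between genotypes in either class: in ML cells 25% and 24.7% held none in WT A and WT B, and 32.9% and 32.5% in mutant A and mutant B. A few cells stood far out, with up to 33 of 1000 UMIs in WT LP, 39 in mutant LP, 22 in WT ML and 30 in mutant ML cells. Cells with 10 or more numbered 35 of 3149 in WT LP, of which 27 were from WT B, 14 of 2950 in mutant LP, 45 of 14176 in WT ML, of which 30 were from WT B, and 23 of 9538 in mutant ML. WT B alone stood apart here: in ML cells the shares were 0.204% in WT A, 0.439% in WT B, 0.254% in mutant A and 0.229% in mutant B. Cells under 1000 UMIs, 45 in WT and 252 in mutant, over all classes, were left out of the thinned values.

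To see whether the members were raised in the same cells, cells with a UMI of Ifit1 or Ifit3 were set against cells with none. IFIT proteins bind foreign RNA ends, and their genes are among those most sharply induced by interferon. In WT such cells made 1.82% of LP cells (58 of 3181, interval 1.39 to 2.35), 2.54% of LI cells (29 of 1143) and 0.465% of ML cells (66 of 14188, interval 0.360 to 0.591). In mutant they made 1.12% of LP (35 of 3123, interval 0.782 to 1.56), 1.47% of LI (14 of 952) and 0.447% of ML cells (43 of 9612, interval 0.324 to 0.602). By library, the LP share was 1.12% in WT A and 2.55% in WT B, and 1.12% in both mutant libraries, so WT B alone stood apart. LI cells are deeper than LP cells (median 5620 and 2018 UMIs in WT). Thinned to 1000 UMIs the shares were 0.826%, 0.525% and 0.205% in WT LP, LI and ML cells and 0.542%, 0.105% and 0.136% in mutant. The LI shares rest on 6 of 1142 WT and 1 of 951 mutant cells and overlapped between genotypes, at 0.822% in WT A, 0.187% in WT B, 0 in mutant A and 0.218% in mutant B. No luminal cell type is known to lack these genes; the lowest share among the 11 luminal clusters of WT was in cluster 10, with 0 of 2696 cells (which allows a share of cells with a UMI of up to 0.111%, at a floor of 3 cells, or 0.137% as the upper end of the exact interval) at a median of 3663 UMIs, and 4 of 1869 mutant cells. Free RNA was not measured apart from cells.

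In LP and ML cells most of the other members with enough counts were higher in the cells with Ifit1 or Ifit3. Outside the IFIT family, the members summed in WT ML cells to 4585 and 5681 CPM in cells with Ifit1 or Ifit3 (WT A and WT B) and to 1507 and 1588 in cells without. A member was called where it was at least 2-fold higher in both libraries. In WT ML cells 16 of 26 members were called, against 2.52% of all genes, and in WT LP cells 11 of 16, against 0.656%. In mutant ML cells 15 of 23 were called, against 2.36%, and in mutant LP cells 9 of 13, against 1.33%. No member was called lower in any of these 4 sets. The minimum of 100 UMIs was set on both kinds of cells together, so a gene could reach it through the cells where it is high, as Rsad2 did in WT ML cells. With the minimum set on the cells without alone, added after the data were seen, 15 of 25 were called in WT ML (2.47% of all genes), 15 of 23 in mutant ML (2.33%), 11 of 15 in WT LP (0.617%) and 9 of 13 in mutant LP cells (1.29%). LI cells with Ifit1 or Ifit3 were few (29 in WT and 14 in mutant). In WT LI cells 7 of 15 were called, against 0.611% of all genes, with a median log2 of 1.15. In mutant LI cells 2 of 12 were called higher (Isg15 and Rtp4), against 1.16%, and 1 lower (Ddx58, with 0 UMIs in the 14 cells), with a median log2 of 0.38. With the minimum set on the cells without, 6 of 13 were called in WT LI (0.531%, Ifi27l2a left out) and 2 of 12 in mutant LI cells (1.12%). When ML cells of WT were first thinned to 1000 UMIs, 9 of 17 members were called. When Isg15 took the place of Ifit1 and Ifit3 as the gene that splits the cells, 9 of 25 were called. The share of all genes called was not counted with thinned cells or with Isg15, so these counts have no background beside them.

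The members differed in how far they went. Isg15 stood at 750 and 865 CPM in WT ML cells with Ifit1 or Ifit3 and at 33.3 and 35.7 in the rest (log2 4.56, interval 4.37 to 4.74). Irf7 stood at 153 and 143 against 8.41 and 9.07 (log2 4.07, interval 3.63 to 4.49). In WT LP cells Isg15 stood at 785 and 827 against 40.4 and 37.2, and Zbp1 at 84.9 and 199 against 11.03 and 13.4. At the other end, Irf1 stood in WT ML cells at 232 and 164 against 119 and 123, Irf9 at 53.1 and 87.0 against 51.4 and 54.2, and Ifi35 at 173 and 235 against 135 and 136. These 3 were not called in WT ML cells, and Irf1 was called in none of the 4 sets. The most abundant member, Ifitm3, stood in WT ML cells at 1134 and 1878 against 616 and 652 and was not called there. Rsad2 (viperin), an enzyme that makes a chain-ending nucleotide, stood at 159 and 194.5 CPM in WT ML cells with Ifit1 or Ifit3 and at 1.26 and 1.29 in the rest, with 62 UMIs in the 66 cells and 72 in the rest, so it passed the minimum only through the cells where it was high. In mutant ML cells it had 31 and 50 UMIs and was not compared, at 27.8 and 194 CPM against 1.19 and 1.017.

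**Figure D5:**
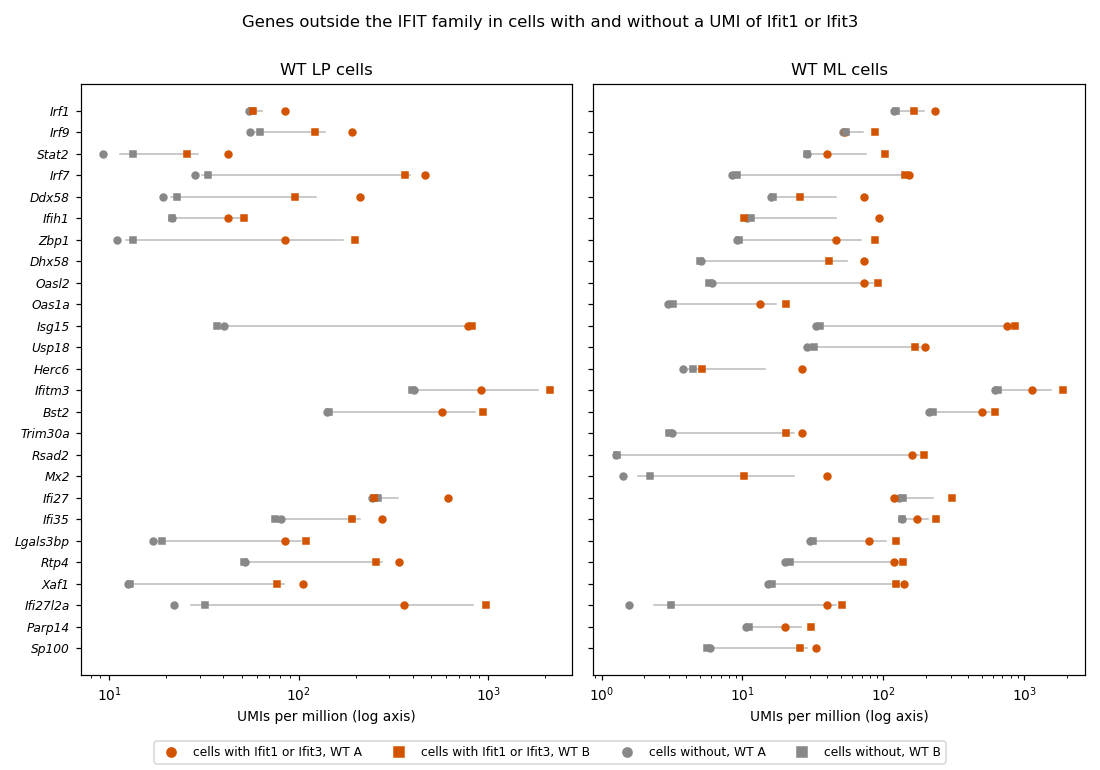
CPM (log axis) of members outside the IFIT family in WT LP and WT ML cells with a UMI of Ifit1 or Ifit3 (orange) and without (grey), for members with at least 100 UMIs. Circles are WT A, squares WT B, and the grey line spans the pooled levels. Isg15, Irf7 and, in ML cells, Rsad2 lie far to the right in cells with Ifit1 or Ifit3. In ML cells the pooled levels of Irf9 and Ifi35 lie nearest to those in cells without.

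Lists of other interferon-induced genes were called in the same cells to unlike extents, and interferon transcripts were few or absent. Of 36 further induced genes, 11 of the 24 compared were called higher in WT ML cells (2.52% of all genes) and 7 of 16 in WT LP cells (0.656%), and 1 was called lower in each. In mutant, 7 of 21 were called higher in ML cells (2.36%) and 4 of 14 in LP cells (1.33%), and 0 lower. With the minimum set on the cells without, 6 of 15 were called higher in WT LP cells (Adar left out), and the other 3 counts did not change. Of 9 genes for the immunoproteasome and peptide loading, 0 were called in ML cells of either genotype and 1 in LP cells of each (Psmb10 in WT, Psmb9 in mutant). In WT ML cells 5 of 6 interferon gamma induced GTPases with enough counts were called, led by Irgm2, Gbp2 and Igtp, and in mutant ML cells 3 of 5 (Gbp7, Gbp2 and Irgm1). The chemokine Cxcl10 stood in WT ML cells at 92.9 and 292 with Ifit1 or Ifit3 and at 3.67 and 4.99 without, and in mutant ML cells at 41.6 and 352 against 3.26 and 4.11. Ccl5 stood in WT ML cells at 53.1 and 348 against 4.30 and 9.21, and in mutant ML cells at 6.94 and 0, on 1 UMI, against 4.18 and 2.204. Of the 6 receptor genes, 1 was called in WT ML cells (Ifnar1, on 6 UMIs) and 0 in the other LP and ML sets. The 21 ligand genes gave 1 UMI in all LP and ML cells with Ifit1 or Ifit3. In WT ML cells the 15 immune markers summed to 8.67 CPM with Ifit1 or Ifit3 and 8.31 without, and in WT LP cells to 54.1 and 23.6, on 11 UMIs. The 8 proliferation markers stood at 1008 and 487 in WT ML cells and at 871 and 1106 in WT LP cells. The part of other cell types in these cells was not tested. The progenitor markers stood at 20350 and 17093 in WT LP cells with and without, and the mature markers at 7108 and 8744 in WT ML cells.

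The lower level in mutant was also present among cells with no UMI of Ifit1 or Ifit3. These are nearly all cells of a class (3123 of 3181 WT LP and 14122 of 14188 WT ML cells). Their values thus largely reuse those of the whole classes, though some called genes differed less between genotypes here. In LP cells without Ifit1 or Ifit3, Irf7 stood at 28.3 and 33.3 CPM in WT and 22.0 and 21.3 in mutant. Isg15 stood there at 40.4 and 37.2 against 24.6 and 16.2. In LI cells without them Isg15 overlapped, at 27.9 and 32.2 against 21.5 and 30.7. A cell with no UMI of either gene is also not shown to lack the response. In those cells the members outside the IFIT family summed in ML cells to 1507 and 1588 CPM in WT and to 1217 and 1272 in mutant, and in LP cells to 1283 and 1318 in WT and to 1093 and 1063 in mutant. The mutant libraries lay below the WT libraries in both classes. In the cells with Ifit1 or Ifit3 the genotypes also stood apart in ML cells, at 4585 and 5681 in WT and 3094 and 4347 in mutant, and in LP cells at 5856 and 7243 against 5274 and 3061, on 35 to 66 cells per genotype and class.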

How the data were processed

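Luminal cells sorted from the glands of 3 pooled mice per genotype were captured with 10x 3′ chemistry, as 2 libraries each. The authors aligned reads with GSNAP to GRCm38 after bcl2fastq 2.20 or CASAVA 1.8, per the submitters' processing notes, and clustered cells in Partek Flow (a Seurat setting of 0.6). The deposited table holds signal, the UMIs of a cell multiplied by 1 factor per cell, so that cells sum to 3516 to 3726. Each value divided by the smallest of its cell lay within 0.00989 of a whole number, and these whole numbers were taken as UMIs. They rest on each cell holding a gene with 1 UMI. No count model was fitted. Libraries are named by genotype and letter, since the table does not carry the replicate number of the labels.

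UMIs were summed per library and class and divided by the total (CPM). Intervals are exact 95% Poisson, Clopper-Pearson or conditional binomial intervals, which cover counting error only. Thinning drew 1000 UMIs per cell without replacement. Doublets were not removed. Leaving out the 5% deepest cells was tried as an alternative, beside other scalings, minimums, folds and cell sets, and each library was left out in turn. Calls were tried on simulated data that hold counting error alone, so this does not show how calls behave with spread between mice or pools. The members and gene lists were chosen with earlier results of these data known. Values per library are given for members called between genotypes and for the 12 with the most UMIs, with other members by range and as examples, and for called genes of the pathway lists. Ddx60, the receptor chains, Cxcl10, Irgm2, Gbp2, Ifit1, Ifit2, Rsad2, Oasl2, Cmpk2 and Mx2 were added as examples after their values were seen. Python 3.11.15, numpy 2.4.6, pandas 2.3.3, scipy 1.17.1 and matplotlib 3.10.9 were used.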

Additional observations from a re-analysis of the deposited data

How the results depend on the processing

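No paired analysis was possible because the table names 2 libraries per genotype without the replicate number of the labels, and no test between genotypes was made. Depth limits the rare members: Ifit3b, Oas3 and Mx1 had under 100 UMIs over all cells. No member was called higher in mutant under any alternative, and no direction reversed. Of 151 values of single members under alternatives 141 stayed within the spread between libraries and 10 moved. These were called members only, whose libraries stood apart by the rule, so leaving out 1 library could not reverse them. Such a shift also tends to stay within the spread between libraries, so these counts say little on how firm the calls are. The counts called lower were 2 over all cells, 7 in LP, 5 in LI and 3 in ML cells. Leaving out 1 library gave 3 to 6, 2 to 7, 4 to 5 and 2 to 5, and medians in LP cells of -0.45 to -0.20. A lower fold rule gave 16, 11, 11 and 13, and the order of libraries at any fold, added after the data were seen, gave 26, 17, 16 and 23. A lower fold also calls more of all genes. Their share was not counted at that fold, without 1 library, or under the minimums of 20 and 300 UMIs, the scalings and the cell sets. A minimum of 300 UMIs, which leaves fewer members, gave 1, 2, 2 and 1, and a minimum of 20 gave 13 in LI cells with a median of -0.51. TMM factors gave 6 over all cells, a mean over cells gave 1 over all cells and 3 in LP cells, leaving out clusters 12 and 13 gave 5 over all cells, and leaving out cluster 2 gave 3 in LP cells. The count higher in LP than ML cells of WT was 6, and 3 to 4 without 1 library, 10 at a minimum of 20 UMIs and 3 at 300. Its median was 0.24, and 0.11 to 0.24 without 1 library, 0.37 at a minimum of 20 UMIs, 0.33 without clusters 2, 5 and 6, and 0.12 in mutant libraries. The count raised with Ifit1 or Ifit3 in WT ML cells was 16 of 26, and 15 of 25 with the minimum of UMIs set on cells without them, 9 of 25 with Isg15 as the splitting gene and 9 of 17 with cells thinned to 1000 UMIs. With Isg15 and with thinned cells the share of all genes called was not counted. Beyond these constructions the cause was not tested.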
